A study of Mus musculus with 120 samples.

Results

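A set of 10 genes of the activin and TGF-β family were followed through biopsies of the immunological niche (IN), a porous polymer scaffold placed under the skin of mice that fills with immune and stromal cells. The genes were chosen by name from the 55487 genes shared by both count tables: Inhba, Inhbb, Gdf3, Tgfb1, Tgfb2 and Tgfb3, which encode ligand chains; Fst and Fstl3, which encode secreted ligand antagonists; and Acvr1 and Acvr2a, which encode receptors. Only 6 of the 10 are therefore ligand genes in the strict sense. The choice used the names alone, but it was made with earlier results of these data known, so the values below are a description of these 10 genes.

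Activins are dimers of the chains encoded by Inhba and Inhbb. They bind type II receptors such as the product of Acvr2a, which then recruit a type I receptor and pass the signal to SMAD proteins. Follistatin (Fst) and follistatin-like 3 (Fstl3) bind activins outside the cell and block them. TGF-β1, TGF-β2 and TGF-β3 use their own receptor pair, are secreted in a latent form and are known for their roles in wound repair, scar formation and the restraint of T cells. GDF3 is a more distant ligand of the family, first known from the embryo and also made by macrophages.

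The series holds 120 IN samples, 97 from NOD/ShiLtJ mice, which develop autoimmune diabetes spontaneously, and 23 from NOR/LtJ mice, a related strain that resists it. All mice were female and untreated. The 58 progressor samples came from 10 NOD mice that became hyperglycemic and were taken at 6 weeks of age, at 7, 5, 3 and 1 weeks before onset and at onset. The 39 nonprogressor samples came from NOD mice that stayed normoglycemic: 33 from 11 mice at 6, 10, 14, 18 or 22 weeks of age, and 6 labelled only by days after implantation, which entered no comparison. The 5 NOR mice were sampled at the same ages, but the series holds no sample of mouse 3 at 6 weeks or of mouse 2 at 18 weeks. Batch 1 held 74 samples, with all NOR samples, and batch 2 held 46, with all 8 samples from 7 weeks before onset and nonprogressors at 6 and 14 weeks only. Scaffolds were removed weekly in rotation and replaced with new ones in the same space. Samples at 6 weeks were thus original implants and those at 10 weeks of age or later were replacements. Between these, age, time since first surgery, time the scaffold had been in place and re-implantation cannot be told apart. The ages of progressors at times counted from onset were not given by the labels, so for the earliest of these samples an original implant is possible.

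Gene counts per sample summed to between 4722396 and 56185434 in batch 1 and to between 29029239 and 43880986 in batch 2. One library stood apart: in the NOR sample of mouse 5 at 18 weeks, a single ribosomal RNA gene took 85.7% of the counts. Of the 10 genes, 7 overlap a gene on the other strand (all but Inhbb, Gdf3 and Tgfb1), among them Acvr2a with Orc4, Fstl3 with Prss57 and Tgfb3 with Ttll5, and whether the counting used strand is not given in the sources used here. Macrophage markers were present throughout, with a summed level of the 9 markers between 1905 and 4207 CPM (counts relative to library size, scaled by TMM) over both strains. All 10 genes passed the filter on low counts in every comparison.

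Promoter sequence from RefSeq (GRCm38.p6) was at hand for 7 of the 10 genes, and the 250 bases upstream of the annotated start are shown for 4 whose expression behaved differently below: Inhba and Fstl3, which varied together, Tgfb2, which fell after 6 weeks in NOD mice, and Tgfb1, the most abundant. Capitals mark matches on either strand to the TATA box, searched as TATAAA, the SMAD box, searched as CAGAC, or the E-box, searched as CACGTG. Matches to the GC box, searched as GGGCGG, are in capitals too. An AP-1 site (the letters TGANTCA) and a cAMP response element (the letters TGACGTCA) were also searched and had no match in these windows. Adjacent GC box matches in the Fstl3 promoter overlap.
Inhba: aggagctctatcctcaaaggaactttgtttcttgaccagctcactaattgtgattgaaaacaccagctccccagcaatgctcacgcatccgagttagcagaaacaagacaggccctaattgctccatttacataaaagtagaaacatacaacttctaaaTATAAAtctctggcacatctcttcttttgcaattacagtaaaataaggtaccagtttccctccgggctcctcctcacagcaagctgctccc
Fstl3: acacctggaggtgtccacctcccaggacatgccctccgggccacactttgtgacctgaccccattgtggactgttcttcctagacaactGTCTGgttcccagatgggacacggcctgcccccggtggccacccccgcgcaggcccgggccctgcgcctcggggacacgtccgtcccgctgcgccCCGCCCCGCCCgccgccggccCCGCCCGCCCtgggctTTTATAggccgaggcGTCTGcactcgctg
Tgfb2: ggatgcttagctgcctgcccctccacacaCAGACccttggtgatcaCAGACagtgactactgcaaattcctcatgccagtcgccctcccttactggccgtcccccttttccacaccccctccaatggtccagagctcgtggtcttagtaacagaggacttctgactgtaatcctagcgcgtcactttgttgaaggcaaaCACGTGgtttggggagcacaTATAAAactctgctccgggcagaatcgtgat
Tgfb1: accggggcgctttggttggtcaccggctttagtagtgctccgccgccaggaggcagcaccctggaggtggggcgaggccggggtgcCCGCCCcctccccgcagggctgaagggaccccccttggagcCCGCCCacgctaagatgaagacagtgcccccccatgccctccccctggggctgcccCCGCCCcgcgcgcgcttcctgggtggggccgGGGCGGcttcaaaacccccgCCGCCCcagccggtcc
These lie at chr13:16011601-16011850 on the plus strand for Inhba, chr10:79777024-79777273 on the plus strand for Fstl3, chr1:186705990-186706239 on the minus strand for Tgfb2 and chr7:25686752-25687001 on the plus strand for Tgfb1. The Tgfb2 and Fstl3 windows each held a TATA match, 31 and 29 bases upstream of the start, and 2 SMAD box matches, whereas the Tgfb1 window held 5 GC box matches and no TATA match. The Inhba window held a TATA match 91 bases upstream and no other. Of 32851 mouse promoter windows of the same length, 12.4% held a TATA match, 42.2% a SMAD box, 32.7% a GC box, 6.75% an AP-1 site, 6.02% an E-box and 1.55% a cAMP response element, and a match in these letters is a description of the sequence only.

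Compared per length, as median CPM per kilobase of exon, Tgfb1 was the highest of the 10 genes in both batches, at 48.4 in batch 1 and 27.2 in batch 2. In batch 1 it was followed by Inhbb at 16.9, Tgfb3 at 9.36, Inhba at 7.94, Acvr1 at 5.14, Fstl3 at 5.05, Acvr2a at 4.48, Gdf3 at 4.37, Tgfb2 at 2.98 and Fst at 2.75. In batch 2 the order was Tgfb3 at 11.5, Inhbb at 7.51, Acvr1 at 6.75, Acvr2a at 6.57, Inhba at 6.06, Fstl3 at 4.11, Gdf3 at 4.10, Fst at 2.95 and Tgfb2 at 2.39. The sample ranges of neighbouring genes overlapped at every step of both orders. Tgfb1 and Inhbb were lower and Acvr1 and Acvr2a higher in batch 2 than in batch 1, so levels are set side by side only within a batch.

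The clearest change among the 10 genes was a rise of Gdf3 (Ensembl ENSMUSG00000030117, chr6:122605403-122610087, minus strand, GENCODE on GRCm38) after 6 weeks of age in NOD mice of both outcomes. In batch 1 progressors, Gdf3 was at 6.06, 2.56, 4.39, 2.34 and 1.46 CPM in the 5 samples taken at 6 weeks, and in the 20 samples from 5 weeks before onset to onset it ranged from 7.25 to 22.4 CPM, with a median of 11.3. In batch 2 progressors it was at 3.25, 3.70, 1.77, 1.5 and 3.22 CPM at 6 weeks and between 8.77 and 20.8 CPM (median 12.8, n = 20) at the same later times. In neither batch did any 6-week sample of a progressor reach the lowest later one. The 8 samples from 7 weeks before onset were all sequenced in batch 2, but 4 of them came from mice 1 to 4, whose other samples are all in batch 1. They lay between 3.88 and 12.1 CPM with a median of 8.98, and each was above all 5 batch 2 samples at 6 weeks, which came from mice 6 to 10.

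Nonprogressors behaved alike. In batch 2, Gdf3 ranged from 1.37 to 4.71 CPM (median 2.81, n = 7) at 6 weeks and from 10.2 to 16.04 CPM (median 12.9, n = 6) at 14 weeks, with no overlap. In batch 1, it was at 3.73, 6.35, 4.53 and 5.4 CPM at 6 weeks, 13.1, 4.39, 13.1 and 3.06 CPM at 10 weeks, and 18.7, 20.8, 22.7 and 25.6 CPM at 18 weeks in mice 1 to 4. The overlap with 6 weeks thus came from mice 2 and 4 at 10 weeks. In the NOR mice with a 6-week sample, the level was 2.70, 2.34, 0.98 and 2.60 CPM, and the 19 later samples had a median of 8.16 and a highest value of 14.7 CPM. The lowest, the library dominated by ribosomal RNA, had 0 Gdf3 counts, which at its depth allows up to 3.03 CPM (3 counts), and every other later NOR sample was at 3.78 CPM or above.

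**Figure D1:**
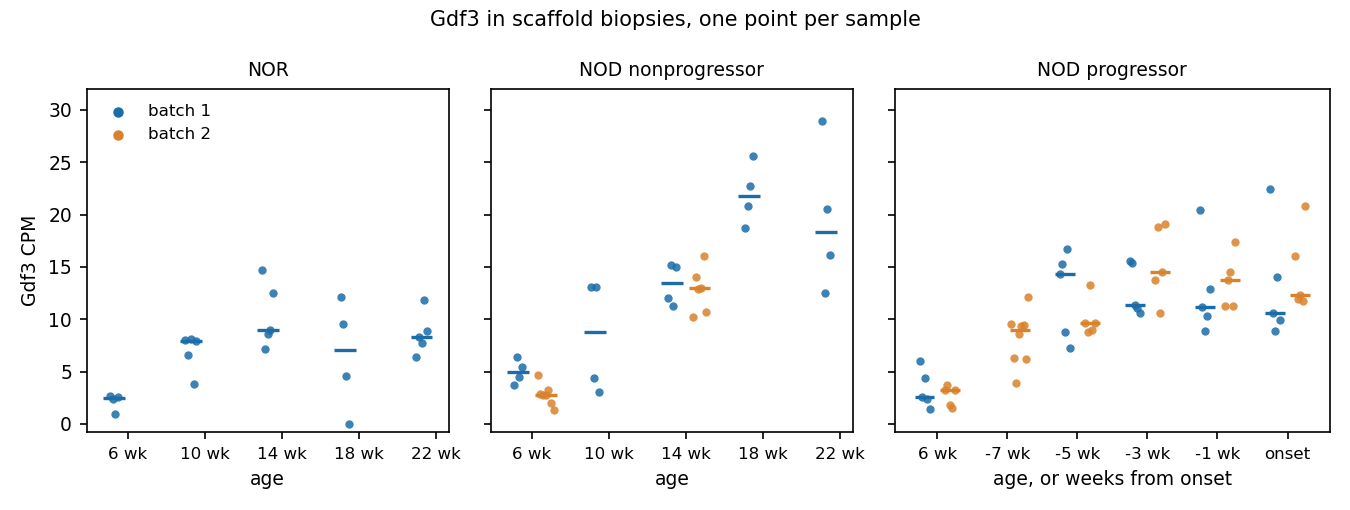
Gdf3 in CPM (vertical axis) in each sample by age or weeks from onset, in NOR mice, NOD nonprogressors and NOD progressors. Points are samples, coloured by batch, and lines are medians; the 6-week samples sit at 6.35 CPM or below in all 3 groups, and the NOR point at 0 is the library dominated by ribosomal RNA.

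Set against the mouse's own 6-week sample, the median later level of Gdf3 was higher in 10 of 10 progressors (median ratio 5.28, range 2.02 to 7.68), in 10 of 10 nonprogressors (median 4.42, range 2.17 to 5.29) and in 4 of 4 NOR mice (median 3.49, range 3.07 to 6.94). By edgeR's quasi-likelihood test with Benjamini-Hochberg adjustment over all genes, the log2 fold change from 6 weeks was 2.10 (SE 0.19, adjusted p = 8.97e-12) in progressors and 1.83 (SE 0.23, adjusted p = 5.33e-06) in nonprogressors. Samples of 1 mouse entered these fits separately. In NOR mice the fold change was 1.94 (SE 0.36, adjusted p = 0.0584), which did not pass the threshold of 0.05, and without the library dominated by ribosomal RNA it was 1.97 (SE 0.30, adjusted p = 0.00855). In NOD mice the call held in all alternative fits that were run, 18 each in progressors and nonprogressors, with log2 fold changes between 1.91 and 2.29 in progressors and between 1.56 and 2.18 in nonprogressors. The rise itself was not shown to differ between groups: the difference was 0.14 (SE 0.26, adjusted p = 0.989) between progressors and nonprogressors and −0.36 (SE 0.45, adjusted p = 0.939) between nonprogressors and NOR.

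Gdf3 was also the only one of the 10 genes called between strains. With the samples of each batch 1 mouse averaged, it was at 8.78, 6.09, 8.53, 6.03 and 6.39 CPM in the 5 NOR mice, at 15.3, 11.9, 14.4 and 13.0 CPM in the 4 nonprogressors and at 15.8, 11.0, 8.46, 10.9 and 8.43 CPM in the 5 progressors. The mean of NOR mouse 5 includes the library with 0 Gdf3 counts. All nonprogressors were above all NOR mice, whereas 2 progressors were below the highest NOR mouse. With counts summed per mouse, the log2 fold change of NOD over NOR was 0.59 (SE 0.15, adjusted p = 0.0213), and 8.98% of the 23387 genes tested passed in this comparison, 3.87% higher and 5.11% lower in NOD, against 1 of these 10 genes, which was higher. Without the library dominated by ribosomal RNA the Gdf3 difference was also 0.59 (adjusted p = 0.0197). The adjusted p rose to 0.0531 without NOR mouse 2, to 0.0606 without NOR mouse 4 and to 0.283 in the 6-week samples alone, where the fold change was 0.92 (SE 0.37). Against nonprogressors only, sampled at the same ages, it was 0.67 (adjusted p = 0.0258). Of the other genes, Inhba had the largest difference, at 71.0 ± 15.2 CPM (SD, n = 4) in nonprogressors, 66.9 ± 21.05 (n = 5) in progressors and 52.8 ± 20.99 (n = 5) in NOR (log2 fold change 0.49, SE 0.25, adjusted p = 0.254). The median over the 10 genes was 0.10, beside −0.00161 over all genes.

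Among the TGF-β ligands, Tgfb2 and Tgfb3 fell after 6 weeks in NOD mice while Tgfb1 changed little. Tgfb2 (chr1:186622792-186705989, minus strand) was at 22.9, 40.03, 28.6, 31.7 and 22.8 CPM in batch 1 progressors at 6 weeks and between 9.20 and 25.7 CPM (median 17.0, n = 20) later. In batch 2 progressors it was at 25.3, 20.2, 25.1, 23.7 and 22.0 CPM at 6 weeks and between 5.11 and 16.1 CPM (median 9.78, n = 20) later, with no overlap. All 10 progressors had a lower median later level than at 6 weeks, with a median ratio of 0.48. By the same test Tgfb2 changed by −1.03 on the log2 scale (SE 0.14, adjusted p = 7.22e-08), and it passed within each batch, at −0.85 in batch 1 and −1.20 in batch 2.

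In batch 1 nonprogressors Tgfb2 was at 27.6, 26.8, 20.1 and 27.8 CPM at 6 weeks, and the 16 later samples ranged from 9.43 to 38.2 CPM with a median of 15.7. In batch 2 it ranged from 13.1 to 28.9 CPM (median 22.5, n = 7) at 6 weeks and from 7.61 to 16.5 CPM (median 12.7, n = 6) at 14 weeks. The ranges overlapped in both batches, in batch 2 through the 6-week sample of mouse 5. The log2 fold change was −0.71 (SE 0.16, adjusted p = 0.00224), and Tgfb2 was lower later in 9 of 10 nonprogressors. NOR mice had 18.9, 16.3, 19.3 and 17.3 CPM at 6 weeks and 12.4 to 26.3 CPM (median 15.8, n = 19) later, a log2 fold change of −0.09 (SE 0.14, adjusted p = 0.957). The difference in the age change between nonprogressors and NOR was −0.54 (SE 0.25) with an adjusted p of 0.799 and an unadjusted p of 0.035, so Tgfb2 was not shown to change differently in the strains.

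Tgfb2 was lowest at onset in batch 2. The 5 mice had 15.4, 12.5, 13.3, 14.1 and 8.58 CPM at 5 weeks before onset and 8.45, 5.11, 9.14, 6.06 and 6.97 CPM at onset, a decrease in each mouse. Within batch 2 the log2 fold change was −0.85 (SE 0.24, adjusted p = 0.0239). The 5 batch 1 mice had 18.0, 17.3, 12.1, 10.7 and 25.7 CPM and then 18.7, 23.6, 10.3, 14.3 and 11.6 CPM, which moved in both directions, with a log2 fold change of −0.09 (adjusted p = 0.893). Over both batches it was −0.46 (SE 0.19, adjusted p = 0.178). Between onset and 5 weeks before, 1.77% of all genes passed, 0.827% higher and 0.945% lower, and none of these 10 did in the fit of both batches. That background rested on single mice: 377 genes were called with all mice, 10 without progressor mouse 8, 11 without mouse 9 and 1088 without mouse 10.

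Tgfb3 (chr12:86056745-86079041, minus strand) fell mainly in batch 1. Batch 1 progressors had 57.2, 77.5, 64.1, 42.1 and 53.1 CPM at 6 weeks and 10.3 to 48.9 CPM (median 27.5, n = 20) later, and batch 2 progressors had 36.7, 56.7, 44.9, 19.1 and 58.4 CPM and then 17.6 to 59.1 CPM (median 37.1, n = 20). Over both batches Tgfb3 changed by −0.72 on the log2 scale (SE 0.16, adjusted p = 0.000278), made up of −1.08 (adjusted p = 0.00247) within batch 1 and −0.30 (adjusted p = 0.25) within batch 2. Nonprogressors had −0.65 (SE 0.19, adjusted p = 0.0132) over both batches, with −0.99 (adjusted p = 0.0103) in batch 1 and −0.07 (adjusted p = 0.816) in batch 2. Whether the batches differed in this change was not tested. Without nonprogressor mouse 1, whose 6-week sample had 90.2 CPM, the nonprogressor value was −0.35 (adjusted p = 0.228).

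**Figure D2:**
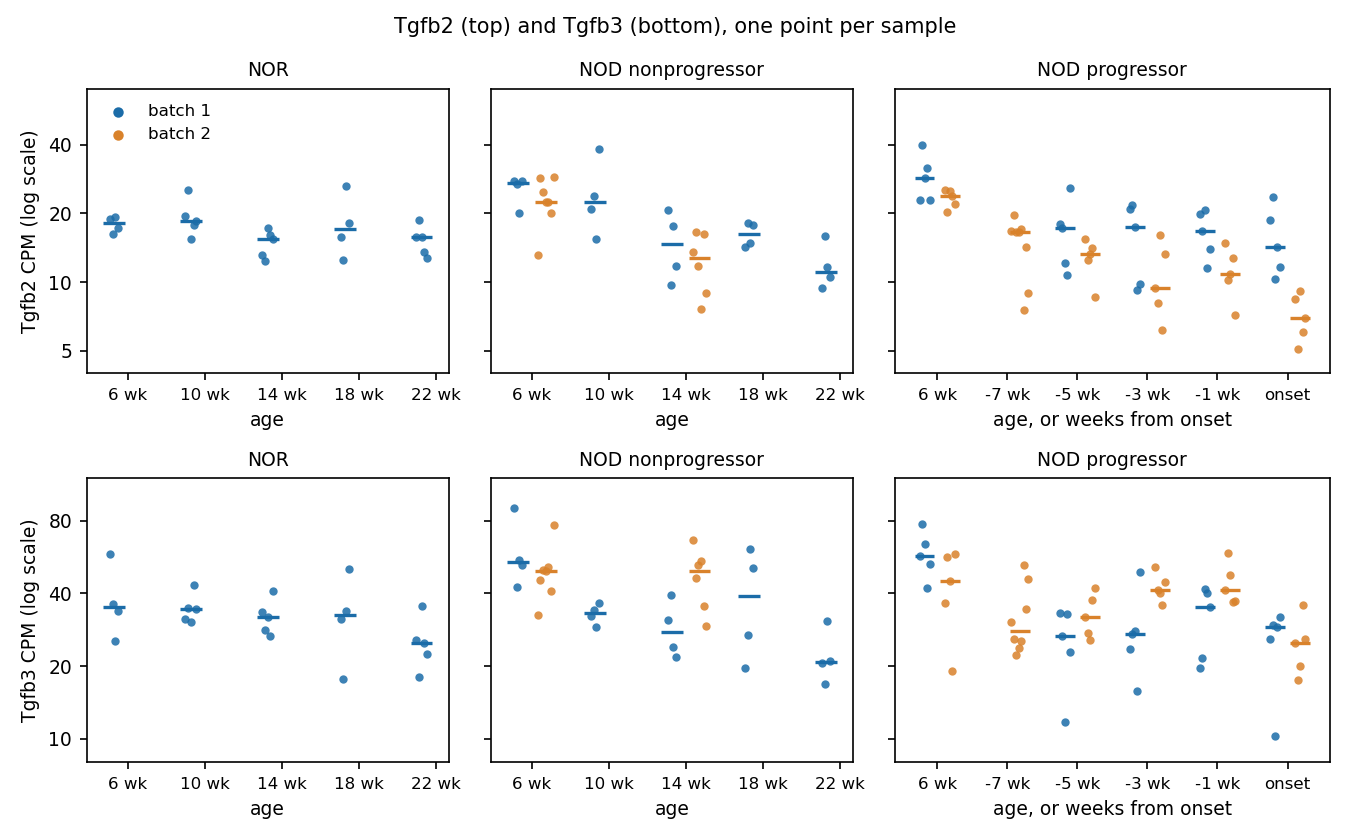
Tgfb2 (top) and Tgfb3 (bottom) in CPM on a log scale in each sample by age or weeks from onset, by group. Points are samples coloured by batch and lines are medians; Tgfb2 in batch 2 progressors runs from 20.2 to 25.3 CPM at 6 weeks and from 5.11 to 9.14 CPM at onset.

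Tgfb1, the ligand best known for restraining T cells, was at 217 to 312 CPM in batch 1 progressors at 6 weeks and at 170 to 330 CPM (median 241, n = 20) later, and at 111 to 157 CPM and 79.9 to 180 CPM (median 148, n = 20) in batch 2. Its log2 fold change was 0.01 (SE 0.09, adjusted p = 0.927) in progressors. In nonprogressors it was 0.22 (SE 0.07, adjusted p = 0.0309), with medians of 224 and 241 CPM in batch 1 and 122 and 148 CPM in batch 2, and this call was lost within batch 1 (0.23, adjusted p = 0.14), without the filter on low counts (adjusted p = 0.0513) and without mice 1, 4 or 10 in turn (adjusted p between 0.0511 and 0.128). In NOR mice it was 0.14 (SE 0.15, adjusted p = 0.921).

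Of the activin chains, Inhbb rose in nonprogressors. Batch 1 nonprogressors had 44.5, 70.2, 59.1 and 48.4 CPM at 6 weeks and 36.4 to 166 CPM (median 85.9, n = 16) later, and batch 2 nonprogressors had 24.6 to 30.5 CPM (median 26.8, n = 7) and then 24.1 to 47.2 CPM (median 34.0, n = 6). The ranges overlapped in both batches, and the level was higher later in 9 of 10 mice. Inhbb changed by 0.46 on the log2 scale (SE 0.15, adjusted p = 0.0293). The call was lost with mouse as a block (0.43, adjusted p = 0.0506) and within batch 1 (0.60, adjusted p = 0.0848). Leaving out mouse 1 (adjusted p = 0.0587), mouse 2 (adjusted p = 0.0685) or mouse 4 (0.30, adjusted p = 0.173) also lost it. The Inhbb change was 0.01 (SE 0.11, adjusted p = 0.958) in progressors and 0.49 (SE 0.23, adjusted p = 0.725) in NOR mice. The difference between progressors and nonprogressors was −0.47 (SE 0.18), with an unadjusted p of 0.0095 and an adjusted p of 0.620.

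Inhba (chr13:16011851-16031621, plus strand) varied widely between samples. In batch 1 progressors it was at 20.2, 49.7, 15.03, 76.8 and 22.1 CPM at 6 weeks and at 25.5 to 215 CPM (median 61.3, n = 20) later. In batch 2 progressors it was at 37.6, 72.5, 34.2, 54.5 and 45.3 CPM at 6 weeks, and the later samples lay at 13.4 to 140 CPM (median 48.7, n = 20). The log2 fold change was 0.57 (SE 0.26, adjusted p = 0.0817) over both batches, 0.99 in batch 1 and 0.18 in batch 2. It passed without progressor mouse 4 (0.70, adjusted p = 0.0460) and in DESeq2 (adjusted p = 0.0493).

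The 8 samples from 7 weeks before onset held low Inhba, with a lowest value of 15.2, a median of 16.6 and a highest of 31.98 CPM. In batch 2 the 5 samples at 5 weeks before onset had 50.1, 86.3, 13.4, 31.7 and 42.5 CPM, and at onset all 5 mice, with 62.9, 93.6, 140, 87.5 and 88.6 CPM, were above every sample from 7 weeks before. The log2 fold change from 7 to 5 weeks before onset was 1.65 (SE 0.38), with an unadjusted p of 5.3e-05 and an adjusted p of 0.280, and it passed in DESeq2 (adjusted p = 0.00628). Within batch 2, which holds all samples of the earlier time, it was 1.12 (adjusted p = 0.479). The change from 5 weeks before to onset was 1.07 within batch 2 (adjusted p = 0.0508) and −0.19 within batch 1 (adjusted p = 0.874).

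In nonprogressors the values of Inhba differed between the batches, which held different mice. Batch 1 mice had 34.6, 28.3, 27.6 and 25.2 CPM at 6 weeks and 99.1, 66.7, 138 and 95.4 CPM at 14 weeks. Batch 2 mice had 29.0 to 51.0 CPM (median 39.8, n = 7) at 6 weeks and 103, 16.4, 27.3, 30.7, 19.0 and 14.8 CPM at 14 weeks, where only mouse 5 reached the batch 1 range. The log2 fold change from 6 weeks was 1.41 (SE 0.38, adjusted p = 0.0230) within batch 1, −0.14 (adjusted p = 0.809) within batch 2 and 0.57 (SE 0.39, adjusted p = 0.305) over both. The later samples of batch 1 spanned 10 to 22 weeks and those of batch 2 only 14 weeks, and the difference between batches was not tested.

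NOR mice fell into earlier and later ages. Inhba was at 18.8, 27.8, 24.8, 40.6 and 20.3 CPM at 10 weeks and at 28.4, 46.0, 25.6, 24.5 and 17.5 CPM at 14 weeks, but at 58.8, 110, 186 and 69.7 CPM at 18 weeks and at 51.6, 87.8, 77.0, 76.3 and 50.4 CPM at 22 weeks, with no overlap between the earlier and the later pair of ages. This split was seen in the values and has no test, and the 69.7 CPM at 18 weeks came from the library dominated by ribosomal RNA. At 6 weeks 3 NOR samples had 20.2, 22.8 and 25.6 CPM and mouse 4 had 104 CPM. The change of later ages together against 6 weeks was 0.17 (SE 0.35, adjusted p = 0.970), and the difference in age change between nonprogressors and NOR within batch 1 was 1.26 (SE 0.51) with an unadjusted p of 0.0189 and an adjusted p of 0.777.

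**Figure D3:**
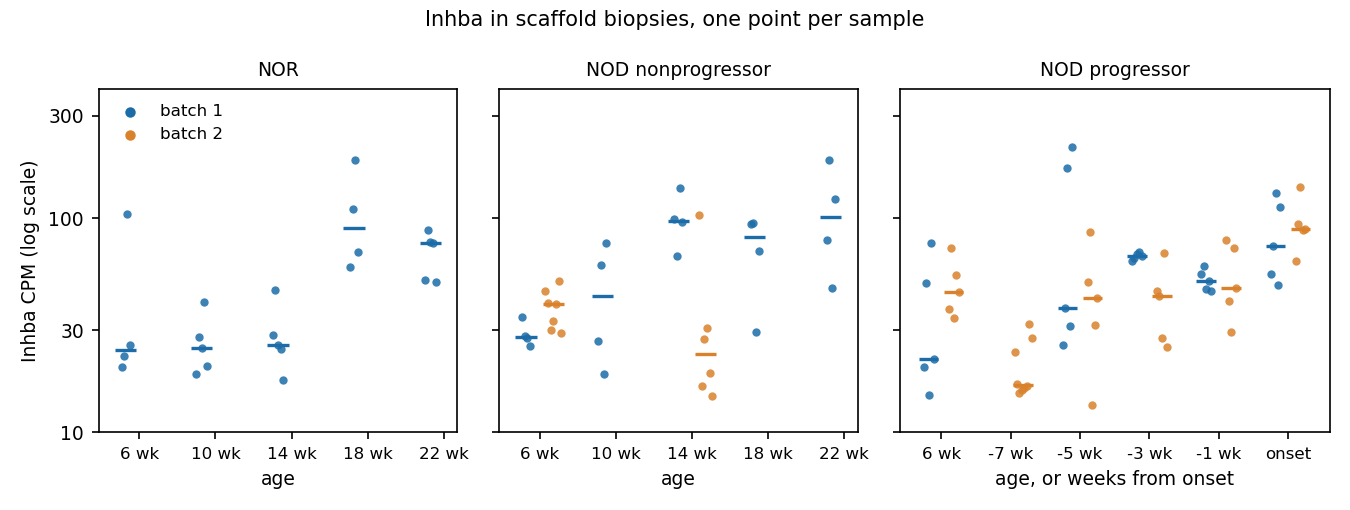
Inhba in CPM on a log scale in each sample by age or weeks from onset, by group. Points are samples coloured by batch and lines are medians; the 8 samples from 7 weeks before onset lie at 31.98 CPM or below, and NOR samples at 18 and 22 weeks lie at 50.4 CPM or above.

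Of the antagonists, Fstl3 varied with Inhba between samples. Over the 120 samples, after the mean of each strain and outcome within batch, all times together, was subtracted, the log2 CPM of Inhba and Fstl3 correlated with Pearson's r = 0.74, the highest value for any pair of the 10 genes, although samples of 1 mouse and libraries of 1 batch share their source. Fstl3 was at 3.24 to 13.0 CPM (median 5.21, n = 8) at 7 weeks before onset, and within batch 2 at 8.94, 13.7, 2.70, 7.64 and 10.7 CPM at 5 weeks before onset. Between these times the log2 fold change of Fstl3 was 1.05 (SE 0.33, adjusted p = 0.285), and 0.53 (adjusted p = 0.934) within batch 2. In batch 2 nonprogressors at 14 weeks, mouse 5 had 23.2 CPM and the others 2.60 to 7.42 CPM, the same mouse that stood out for Inhba. From 6 weeks to later, Fstl3 did not pass in any group, with −0.35 (SE 0.22, adjusted p = 0.201) in progressors, −0.01 (SE 0.34, adjusted p = 0.995) in nonprogressors and 0.17 (SE 0.22, adjusted p = 0.943) in NOR. In progressors Inhba had the opposite sign over this interval, at 0.57 (SE 0.26, adjusted p = 0.0817).

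**Figure D4:**
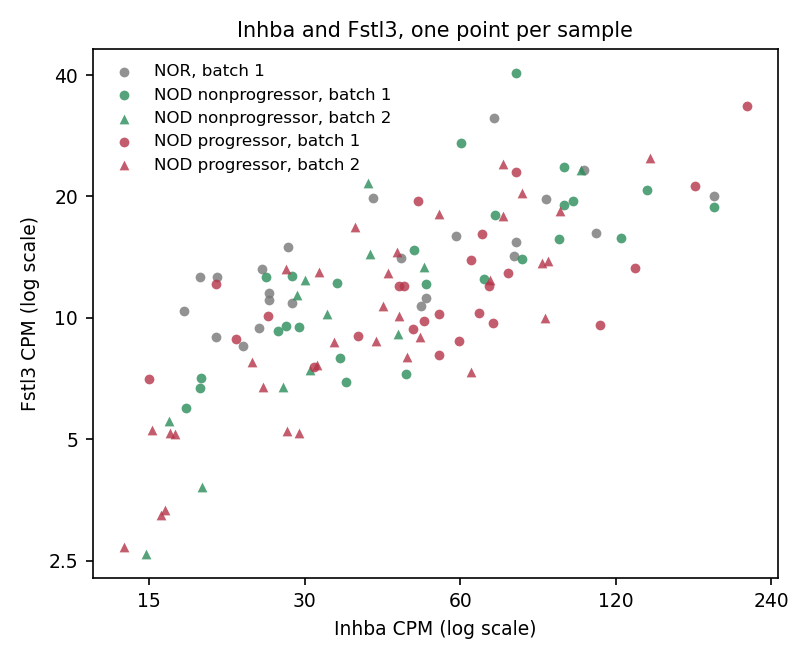
Fstl3 against Inhba, both in CPM on log scales, in each of the 120 samples, coloured by group and shaped by batch. Samples low in one gene tended to be low in the other, down to 13.4 CPM of Inhba with 2.70 CPM of Fstl3.

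Fst fell after 6 weeks in NOD mice. Progressors had 18.9, 18.7, 17.1, 12.7 and 13.1 CPM in batch 1 at 6 weeks and 5.51 to 19.2 CPM (median 11.5, n = 20) later, and 17.9, 10.7, 18.8, 23.8 and 19.7 CPM in batch 2 and then 6.53 to 19.2 CPM (median 13.5, n = 20). Fst changed by −0.49 on the log2 scale (SE 0.15, adjusted p = 0.00828) in progressors, −0.63 (SE 0.18, adjusted p = 0.0120) in nonprogressors and −0.06 (SE 0.19, adjusted p = 0.997) in NOR. The groups overlapped, and the call was lost within batch 1 in progressors (adjusted p = 0.104) and nonprogressors (adjusted p = 0.119), with values close to those over both batches, −0.47 and −0.54.

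The receptor genes moved by small amounts. Acvr1, a type I receptor, was at 26.2 to 38.1 CPM (median 29.2, n = 5) at 6 weeks and 20.5 to 29.1 CPM (median 23.6, n = 20) later in batch 1 progressors, and at 36.3 to 44.8 CPM (median 41.6, n = 5) and 25.9 to 38.4 CPM (median 31.95, n = 20) in batch 2. It was lower later in 10 of 10 progressors, 9 of 10 nonprogressors and 4 of 4 NOR mice. Acvr1 changed by −0.34 on the log2 scale (SE 0.05, adjusted p = 1.1e-07) in progressors, −0.27 (SE 0.07, adjusted p = 0.00915) in nonprogressors and −0.18 (SE 0.07, adjusted p = 0.617) in NOR. The nonprogressor call of Acvr1 was lost within batch 1 (−0.21, adjusted p = 0.128). Acvr2a, an activin type II receptor, fell by 0.29 in progressors (SE 0.07, adjusted p = 0.00069) and fell by 0.45 in nonprogressors (SE 0.06, adjusted p = 2.53e-05) on the log2 scale. In progressors the Acvr2a call was lost within batch 2 (−0.22, adjusted p = 0.0909), and it held within batch 1 (−0.35, adjusted p = 0.00814). In batch 1 nonprogressors its 4 samples at 6 weeks, at 31.95 to 39.4 CPM, were above all 16 later ones, at 20.3 to 28.3 CPM. In NOR the Acvr2a value was −0.23 (SE 0.13, adjusted p = 0.807).

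In all, 6 of the 10 genes passed between 6 weeks and later samples in progressors, 1 higher and 5 lower, where 39.5% of all 21279 genes tested passed, and 8 passed in nonprogressors, 3 higher and 5 lower, where 24.1% passed. Gdf3, Tgfb2, Tgfb3, Fst, Acvr1 and Acvr2a passed in both groups with the same sign. Without nonprogressor mouse 1 only Gdf3, Tgfb2 and Acvr2a passed in nonprogressors. The median log2 fold change of the 10 genes was −0.31 in progressors and −0.14 in nonprogressors, beside 0.01 and −0.03 over all genes. In NOR mice edgeR called none of the 10 and 0.0357% of all genes, with 3 of the 10 and 1341 of 19628 genes at an unadjusted p under 0.05. DESeq2 called 46 genes there, Gdf3 among them (1.92, adjusted p = 4.08e-06). Without the library dominated by ribosomal RNA, edgeR called Gdf3 as given above and none of the other 9, whose log2 fold changes in NOR ranged from −0.38 for Tgfb3 to 0.42 for Inhbb. In a bulk sample, fewer cells of a type and less RNA per cell cannot be told apart.

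**Figure D5:**
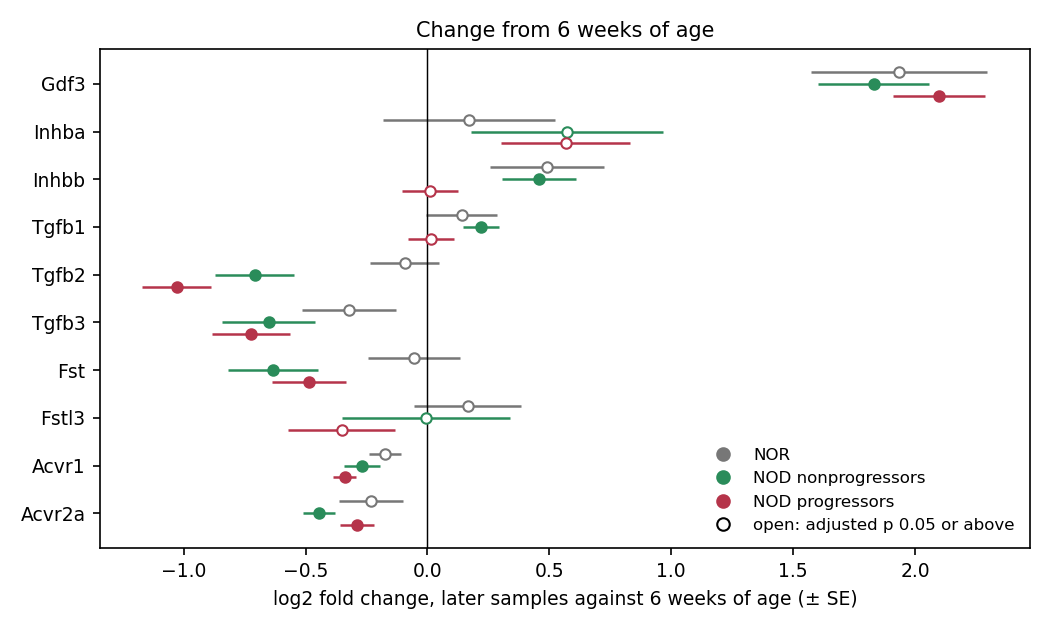
Log2 fold change of the 10 genes in later samples against 6 weeks of age (horizontal axis, bars are SE from the edgeR fit), in NOR mice, NOD nonprogressors and NOD progressors. Filled points passed an adjusted p of 0.05; Gdf3 lies at 1.83 to 2.10 in all 3 groups, and Tgfb2 at −1.03 in progressors and −0.09 in NOR.

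Markers of other cells moved over the same interval. Of all genes tested, 19.6% rose and 19.9% fell in progressors, and 9.88% rose and 14.2% fell in nonprogressors, so small counts below lie near these shares. In NOR 0.0357% of all genes passed, so a count of 0 there lies near the share over all genes. All 7 fibroblast markers on a fixed list fell in progressors and 6 of 7 in nonprogressors, and 0 of 7 passed in NOR. Their summed level was 17017 to 31440 CPM at 6 weeks and 3116 to 18444 CPM later in batch 1 progressors, and 11727 to 28669 CPM and 1538 to 12920 CPM in batch 2. In nonprogressors it was 12290 to 19657 CPM at 6 weeks and 3440 to 21967 CPM later in batch 1, and 13995 to 27403 CPM and 4419 to 9705 CPM in batch 2, where the times did not overlap. In NOR it was 10970 to 17827 CPM at 6 weeks and 6847 to 31472 CPM later. B cell markers rose, 5 of 6 in progressors and 3 of 6 in nonprogressors, from a summed 15.6 to 31.3 CPM to 18.3 to 55.3 CPM in batch 1 progressors. Among 9 macrophage markers 0 rose and 1 fell in each NOD group. Of the hair follicle markers, 6 of 8 rose in progressors and 1 of 4 tested rose in nonprogressors. In progressors their median summed level was 2.69 CPM at 6 weeks and 5.79 CPM later in batch 1. In batch 2 it was 1.53 and 2.47 CPM. The highest later sample was at 5042 CPM in batch 1 and at 6032 CPM in batch 2. At 6 weeks the highest was at 76.4 CPM in batch 1 and 2.71 CPM in batch 2. Of 7 T cell markers, 5 rose in progressors and 0 passed in nonprogressors. The test of a difference in the change from 6 weeks between these groups called 0 of the 7. In progressors the median summed level of the T cell markers went from 17.8 to 12.6 CPM in batch 1. In batch 2 it went from 8.95 to 18.4 CPM, so the batches moved in opposite directions. Of the mammary epithelium markers 5 of 6 tested rose in progressors and 2 of 6 in nonprogressors, and of the endothelial markers 4 of 7 and 2 of 7 fell. The median summed level of the mammary markers in progressors went from 2.59 to 3.32 CPM in batch 1. In batch 2 progressors it went from 3.62 to 70.2 CPM. In nonprogressors it went from 5.37 to 2.33 CPM in batch 1 and from 2.65 to 237 CPM in batch 2. Of 4 epidermis markers tested, 1 rose in progressors and 3 fell in nonprogressors. In nonprogressors the median summed level of the epidermis markers went from 3.02 to 1.76 CPM in batch 1. The highest 6-week sample there was at 568 CPM. In batch 2 nonprogressors the median rose from 1.01 to 11.0 CPM. Among 6 foreign body giant cell markers, 1 rose and 2 fell in progressors and 2 fell in nonprogressors. Of 5 neutrophil markers tested, 1 rose in each NOD group. Of 7 smooth muscle and pericyte markers, 2 fell in progressors and 1 fell in nonprogressors. No fibroblast, B cell or macrophage marker was at 0 throughout any of these groups. The part of these markers in the changes of the 10 genes was not tested.

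Other genes of the pathway were taken from a list of 65, of which 60 were tested in each NOD group. In progressors 9 rose and 22 fell between 6 weeks and later samples, beside 19.6% and 19.9% of all genes, and in nonprogressors 5 rose and 16 fell, beside 9.88% and 14.2%. Falling antagonists and binders made up 5 of 8 in progressors and 4 of 8 in nonprogressors, among them Dcn, a matrix proteoglycan that binds TGF-β (−1.17, adjusted p = 9.16e-06 in progressors, and −0.90, adjusted p = 0.000417 in nonprogressors). Of 12 transcriptional targets, 2 rose and 4 fell in progressors, and 0 rose and 3 fell in nonprogressors. Among them Postn, a matrix protein of repairing tissue, fell by 1.6 on the log2 scale in progressors (adjusted p = 4.4e-09) and by 1.29 in nonprogressors (adjusted p = 0.000163). Col1a1, a chain of fibrillar collagen, fell by 1.25 (adjusted p = 2.29e-09) in progressors. Gdf11, another ligand, fell by 0.90 (adjusted p = 8.23e-10) in progressors, and Tgfbi, a matrix protein induced by TGF-β, fell by 0.81 (adjusted p = 0.00121) in nonprogressors. Tgif1, a corepressor of SMAD signalling (0.44 and 0.37), Wfikkn1, a secreted binder of family ligands (0.61 and 0.55), and Ltbp2, a matrix protein of the latent TGF-β binding family (0.81 and 0.74), rose in progressors and nonprogressors. None of the list passed in NOR, where 59 were tested and 0.0357% of all genes passed. Between strains 4 of 61 tested were lower in NOD and none was higher, beside 5.11% and 3.87% of all genes, with the SMAD anchor Zfyve9 at −0.24 (adjusted p = 0.000633), the activin type I receptor Acvr1b at −0.17 (adjusted p = 0.0223) and the latency protein Ltbp3 at −0.25 (adjusted p = 0.0244) the 3 with the smallest p, and between onset and 5 weeks before Klf10, an early TGF-β response gene, was the one that passed, beside 1.77% of all genes, at 0.57 (adjusted p = 0.000227).

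None of the 10 genes separated progressors from nonprogressors in edgeR or DESeq2. At 6 weeks, with 10 progressors and 11 nonprogressors and batch in the model, edgeR called 0 of 19082 genes (0% of genes), with 985 at an unadjusted p under 0.05, and DESeq2 also called 0. The 10 genes had log2 differences between −0.29 and 0.34, and 3 had an unadjusted p under 0.05: Inhbb at 0.26 (SE 0.09, adjusted p = 0.891), Tgfb1 at 0.17 (SE 0.08, adjusted p = 0.891) and Acvr2a at −0.16 (SE 0.07, adjusted p = 0.891). Inhbb was at 54.1, 61.5, 75.0, 86.9 and 84.5 CPM in batch 1 progressors at 6 weeks and, as given above, at 44.5 to 70.2 CPM in nonprogressors, and in batch 2 at 25.6 to 36.5 CPM and 24.6 to 30.5 CPM, so the groups overlapped in both batches. In late samples, from 3 weeks before onset to onset or from 14 weeks of age on, summed per mouse for 10 mice a group, edgeR called 0 of 21736 genes with 1532 at an unadjusted p under 0.05 and DESeq2 called 17, none of them among the 10 genes, whose differences lay between −0.21 and 0.22. The tests of a difference in the change from 6 weeks, between progressors and nonprogressors and between nonprogressors and NOR, likewise called 0 genes in edgeR, with 1531 and 1250 at an unadjusted p under 0.05, and DESeq2 called 11 and 9, again none of these 10. From 7 to 5 weeks before onset edgeR called 0 of 21279 genes, with 2417 at an unadjusted p under 0.05, and DESeq2 called 14, with Inhba among them.

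The genes most like each member were sought among 15912 genes with a mean of at least 1 CPM, by Pearson's r over the 120 samples after the same means were subtracted. Inhba was most like Itgam (r = 0.90), Fcgr2b (0.90) and Fndc3a (0.89), the first an integrin chain and the second an Fc receptor of myeloid cells. Fstl3 was most like Lox (0.89), Fosl1 (0.87) and Pgf (0.87), and Tgfb2 like Tshz3 (0.91), Sparc (0.87) and Antxr1 (0.87), where Sparc encodes a matrix protein of stromal cells. Gdf3 was most like Tnfsf13 (0.84), Shisa9 (0.79) and Gm26569 (0.79), and Tgfb1 like Spi1 (0.88), a myeloid transcription factor, Aup1 (0.87) and Atp6v0c (0.86). Tgfb3 was most like Gpc4 (0.81), Bace1 (0.75) and Sertad4 (0.74), Fst like Pcsk5 (0.77), Psd3 (0.74) and Stk39 (0.72), Acvr1 like Hdlbp (0.78), Pofut2 (0.76) and Fbln2 (0.75), Acvr2a like Zfp820 (0.78), Gulp1 (0.75) and C130023A14Rik (0.75), and Inhbb, with the weakest likeness, like Slc6a17 (0.59), Kifc3 (0.56) and Brd2 (0.55). Among the 10 genes themselves, the next closest pairs after Inhba and Fstl3 were Acvr1 with Tgfb2 (0.61) and Fstl3 with Acvr1 (0.51), and the lowest value was −0.56, between Gdf3 and Tgfb2.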

How the data were processed

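RNA-seq had been run on 120 scaffold biopsies by ribosomal depletion. The deposited values were expected counts per gene in 2 tables, 1 a batch, and per the submitters' notes the authors used cutadapt, FastQC, STAR, RSEM and MultiQC on GRCm38 (versions and the strand setting are not given in the sources used here). Of 55492 and 55491 genes, 55487 were shared. Every column matched a sample by its library name (0 columns were left over). Expected counts were rounded. Members and gene lists were chosen with earlier results of these data known.

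CPM were scaled by TMM over all samples together in edgeR 4.0.16 (R 4.3.3), and each fit computed its own TMM factors. Each comparison used edgeR's quasi-likelihood test after filterByExpr, with batch as a term where both batches entered, and Benjamini-Hochberg adjustment over all genes tested; an adjusted p under 0.05 was called. Comparisons of NOD with NOR and of late samples used counts summed per mouse. Changes from 6 weeks set the mean of the later times against 6 weeks, where later means 5 weeks before onset to onset in progressors and 10 to 22 weeks of age otherwise. All 10 genes are named in each comparison; of the pathway list, up to 3 genes with the smallest p in each direction are named. Mouse numbers in the labels mark samples of the same animal. Their deviations from the group means had a mean r of −0.00328 in progressors, 0.00635 in NOR and 0.00495 in nonprogressors within a mouse, and of 0.00255, −0.00161 and 0.00111 between mice. A block for mouse was an alternative. The closest of 239 replicate pairs differed by 11.01 chi-square per degree of freedom, so no library was a copy. Other alternatives were DESeq2 1.42.0, its size factors, no filter, each batch alone, no batch term, each sample entered separately, 6-week samples only, leaving out the NOR sample of mouse 5 at 18 weeks, leaving out each mouse, and, added after the data were seen, nonprogressors only against NOR, and batch 2 mice sampled at both 5 and 7 weeks before onset. The scripts were tested on simulated data. Figures used matplotlib 3.10.9. Depth limits the low genes most: the limit that a count of 0 allows covers counting error only.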

Additional observations from a re-analysis of the deposited data

Results flagged for a closer look

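In 20 of 230 groups of 4 to 8 samples of 1 gene, time and batch, 1 sample lay far from the others by Dixon's test, which chance does in about 1 in 20 groups. Nonprogressor mouse 5 at 14 weeks (batch 2) stood out for both Inhba, at 103 CPM beside 14.8 to 30.7 CPM in the others, and Fstl3, at 23.2 CPM beside 2.60 to 7.42 CPM. NOR mouse 4 at 6 weeks stood out for 3 genes: it was highest for Inhba, at 104 CPM beside 20.2 to 25.6 CPM, and Acvr1, at 29.8 CPM beside 26.2 to 26.5 CPM, and lowest for Fst, at 12.0 CPM beside 15.5 to 15.8 CPM.

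For the other flagged samples, highest and lowest refer only to samples of the same group, time and batch. Fstl3 was highest in progressor mouse 9 at 7 weeks before onset (13.0 CPM) and in nonprogressor mouse 9 at 6 weeks (21.6 CPM), and lowest in nonprogressor mouse 3 at 6 weeks (9.55 CPM). Fst was highest in progressor mouse 8 at 3 weeks before onset (19.2 CPM) and at onset (14.9 CPM), and in progressor mouse 5 at 5 weeks before onset (17.0 CPM). Gdf3 was highest in progressor mouse 8 at 5 weeks before onset in batch 2 (13.3 CPM), Inhbb in nonprogressor mouse 4 at 10 weeks (166 CPM) and Acvr2a in nonprogressor mouse 1 at 6 weeks (39.4 CPM).

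Again only among samples of the same group, time and batch, Tgfb1 was highest in nonprogressor mouse 3 at 14 weeks (303 CPM). It was lowest at onset in progressor mouse 2 (170 CPM, batch 1) and mouse 9 (79.9 CPM, batch 2). In the same sense, Tgfb2 was lowest in nonprogressor mouse 3 at 6 weeks (20.1 CPM). Tgfb3 was likewise highest in nonprogressor mouse 11 at 6 weeks (76.5 CPM) and lowest in progressor mouse 3 at onset (10.3 CPM).

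The 6 nonprogressor samples labelled only by days after implantation, which entered no comparison, held Gdf3 above the highest NOR sample (14.7 CPM). The pair from day 31 had 16.2 and 19.8 CPM, the pair from day 38 had 17.2 and 15.7 CPM, and the pair from day 108 had 30.2 and 24.0 CPM.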

How the results depend on the processing

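Of the 10 genes, the number called in a comparison changed as follows, and the cause was not tested. For NOD against NOR it went from 1 to 0 with the 6-week samples only, and ranged from 0 to 1 when 1 mouse was left out, falling to 0 without NOR mouse 2 or NOR mouse 4. In progressors after 6 weeks it went from 6 to 3 in batch 2 mice sampled at both 5 and 7 weeks before onset with mouse as a block (Tgfb3, Fst and Acvr2a lost), to 4 within batch 2 (Tgfb3 and Acvr2a lost) and to 5 within batch 1 (Fst lost), and was 6 to 7 with 1 mouse left out. For onset against 5 weeks before it went from 0 to 1 (Tgfb2) within batch 2 and in those batch 2 mice with the block, and for 5 against 7 weeks before onset from 0 to 1 (Inhba) with DESeq2. In nonprogressors it went from 8 to 5 within batch 1 (Inhbb, Tgfb1, Fst and Acvr1 lost, Inhba gained), and ranged from 3 to 8 with 1 mouse left out, at 3 without mouse 1. In NOR it went from 0 to 1 (Gdf3) with DESeq2, with no filter on low counts and without the sample of mouse 5 at 18 weeks. With 1 mouse left out, no gene of the 10 was called in the other comparisons. The block for mouse removed Inhbb in nonprogressors (0.43, adjusted p = 0.0506) and changed no other call of the 10 genes.

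Counts over all genes moved by more than 1.5 times in several fits. Onset against 5 weeks before gave 377 genes, 103 with no filter, 810 with DESeq2, 1 within batch 1, 1973 within batch 2, 592 in the batch 2 mice with the block and 14 with no batch term, and ranged from 10 to 1088 with 1 mouse left out (10, 11 and 1088 without mice 8, 9 and 10, and 250, 153 and 196 without mice 1, 3 and 6). Progressors after 6 weeks gave 8403, 5317 within batch 1 and 5148 in the batch 2 mice with the block. Nonprogressors gave 5094, 2712 within batch 1 and 9173 with no batch term, and 2786 without mouse 1. NOR gave 7, 46 with DESeq2, 12 with no filter or without the sample of mouse 5 at 18 weeks, 2 with the block, 54 without mouse 4, 3 without mouse 3 and 0 without mice 1, 2 or 5 in turn. NOD against NOR gave 2101, and 403 with 6-week samples. For 5 against 7 weeks before onset, edgeR gave 0, DESeq2 14 and batch 2 alone 2. DESeq2 gave 17 for late progressors against late nonprogressors, and 11 and 9 for the differences in change from 6 weeks, where edgeR gave 0.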

Other observations

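In the 6 samples labelled by days after implantation, each of the other 9 genes stayed below its highest NOR value. Inhbb was at 58.2 and 64.2 CPM on day 31, 85.3 and 105 CPM on day 38, and 110 and 95.6 CPM on day 108, beside a highest NOR value of 141 CPM. Inhba was at 51.5 and 36.0 CPM on day 31, 18.9 and 17.7 CPM on day 38, and 35.1 and 48.9 CPM on day 108. Tgfb2 ranged from 13.9 to 21.4 CPM and Tgfb3 from 24.7 to 36.8 CPM over the 6 samples.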
